A study of Homo sapiens with 12 samples.

Results

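The endoplasmic reticulum (ER) unfolded protein response genes described here are HSPA5, HSP90B1, XBP1, DNAJB9, SDF2L1, HERPUD1, PDIA4, HYOU1, CRELD2 and EDEM1, 10 genes chosen by name among the 60669 gene IDs of an RNA-seq count table. All 10 were paired with an ID and all 10 were among the 18720 genes that passed the expression filter. The libraries came from 6 established ovarian cancer cell lines, each treated for 6 h with 8 µM quinacrine (QC), an acridine drug used as an antimalarial, or with buffer as vehicle. The lines form 3 isogenic families of a chemotherapy-sensitive line and its resistant partner, namely HeyA8 with HeyA8-MDR, SK-OV-3 with SK-OV-3-TR, and OV2008 with C13. The study's methods describe the partners as resistant to carboplatin, taxol and cisplatin in that order, so the resistant group mixes 3 kinds of selection. There was 1 library per line and treatment, 12 in all, so the 3 lines of a group were its replicates and p-values measure the spread between lines. The comparisons asked whether QC altered these transcripts in sensitive and resistant cells, and whether resistant cells carried other levels without drug.

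The ER folds secreted and membrane proteins, and when unfolded chains accumulate the sensors ERN1 (IRE1), ATF6 and EIF2AK3 (PERK) raise transcription of chaperones and degradation factors. IRE1 splices the XBP1 mRNA, which then encodes an active transcription factor, and ATF6 is cut to release another. Both act with NF-Y on promoters through the ER stress element (ERSE), while PERK slows translation and favours ATF4. Cancer cells with a heavy secretory load often rely on this response. Gene-level counts do not separate spliced from unspliced XBP1 mRNA, so no statement on IRE1 activity can be made from them.

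The promoters were examined first, because a shared element is the usual route to the joint control of these genes. The RefSeq promoter table for GRCh38.p14 held all 10 genes, and the 250 bases before each annotated start site were searched on both strands. ERSE, searched as CCAAT, 9 bases of any kind and CCACG, was found in 22 of 27305 promoters (0.0806%), 4 of them promoters of HSPA5, HSP90B1, XBP1 and CRELD2. ERSE-II, searched as ATTGG, 1 base of any kind and CCACG, was found in 14 promoters (0.0513%), 3 of them those of SDF2L1, HERPUD1 and HYOU1. The core of the UPR element, TGACGTGG, was in 182 promoters (0.667%) and in that of HYOU1, where it overlaps an ERSE-II match. The core of the element bound by ATF4 with its partners, TTGCATCA, was in 224 promoters (0.82%) and in that of HERPUD1. No match to any of the 4 was found in these windows for DNAJB9, PDIA4 and EDEM1. The 10 genes were chosen by name as genes of this response, so their matches beside the share of all promoters are not a test. The matched windows are printed because they group the genes in a way that can be set beside their response to QC. Capitals mark the matched letters and each sequence is read along the strand of its gene, so that a match on the opposite strand appears as its complement, starting with CGTGG.
HSPA5, GRCh38.p14 chr9:125241381-125241419, minus strand: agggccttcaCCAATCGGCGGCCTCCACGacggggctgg
XBP1, GRCh38.p14 chr22:28800593-28800631, minus strand: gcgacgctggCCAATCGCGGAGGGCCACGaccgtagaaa
CRELD2, GRCh38.p14 chr22:49918544-49918582, plus strand: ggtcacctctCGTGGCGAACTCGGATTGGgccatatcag
HSP90B1, GRCh38.p14 chr12:103930206-103930349, plus strand: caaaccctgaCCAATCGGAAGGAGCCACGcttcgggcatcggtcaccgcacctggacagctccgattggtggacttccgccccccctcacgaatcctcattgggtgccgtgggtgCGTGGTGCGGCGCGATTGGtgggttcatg
SDF2L1, GRCh38.p14 chr22:21642104-21642134, plus strand: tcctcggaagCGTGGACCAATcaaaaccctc
HERPUD1, GRCh38.p14 chr16:56931956-56932045, plus strand: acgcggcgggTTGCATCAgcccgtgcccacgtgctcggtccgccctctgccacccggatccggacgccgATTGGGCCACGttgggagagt
HYOU1, GRCh38.p14 chr11:119057264-119057403, minus strand: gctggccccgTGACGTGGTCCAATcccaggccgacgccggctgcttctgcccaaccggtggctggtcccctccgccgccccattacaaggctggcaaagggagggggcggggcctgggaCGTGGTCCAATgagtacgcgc

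The windows of HSP90B1 and HYOU1 hold 2 matches each, an ERSE on either strand in HSP90B1 and a pair of ERSE-II matches in HYOU1. The matches of HSPA5, XBP1 and CRELD2 lie within 80 bases of the start site, while that of SDF2L1 begins 188 bases upstream. A match is a description of letters and does not show that a factor bound there in these cells.

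**Figure D1:**
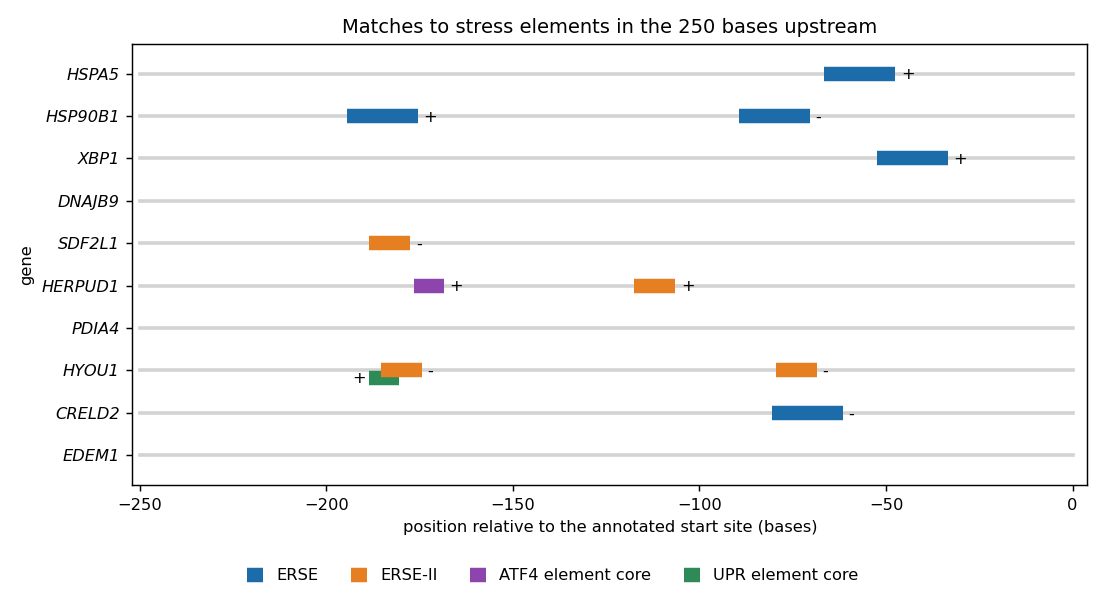
Position of each match in the 250 bases upstream of the annotated start site (x axis, bases; y axis, gene), coloured by element, with the strand relative to the gene beside it. Matches are drawn for 7 of the 10 genes, and the lines of DNAJB9, PDIA4 and EDEM1 are empty.

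Library totals of gene counts ran from 17782556 to 30585059 (median 22289428). Levels are given as CPM, TMM-scaled counts divided by library size, except that the marker values were divided by the library total without TMM scaling. The epithelial keratins KRT8 and KRT18 and the lineage markers PAX8 and WT1 reached 1 CPM in the vehicle library of all 6 lines. The other listed markers did not: KRT19 and CDH1 were under it in HeyA8, and KRT19, EPCAM and CDH1 in HeyA8-MDR. MUC16 was under it in HeyA8, HeyA8-MDR and SK-OV-3-TR, and MSLN in SK-OV-3-TR. The summed level of 4 ovarian lineage markers was 14.0 CPM in OV2008 and 40.3 CPM in C13, against 300.1 to 558 CPM in the other 4 lines, and 3 leukocyte and endothelial markers together stayed at or below 6.39 CPM. The HeyA8 QC library lay towards its partner line in both directions. Among 65 genes that were 8-fold or more above HeyA8 in the HeyA8-MDR vehicle library, the QC library had covered a median of 37.4% of the distance to HeyA8-MDR, and among 108 genes that were 8-fold or more below, it had covered 53.1%. In other QC libraries 1 of the 2 gene sets also moved, by 30.5% in HeyA8-MDR (65 genes lower in HeyA8) and by 29.8% in OV2008 (71 genes lower in C13), with the opposite set at 3.71% and 1.57%, and no set of the remaining 3 libraries was above 11.96%. ABCB1, the drug efflux pump, had 4.12 CPM in HeyA8 vehicle, 26.5 CPM in HeyA8 QC and 53.9 CPM in HeyA8-MDR vehicle. A change with QC and an admixture of the resistant line cannot be told apart for genes that differ between these lines, so fitted results over several lines are also given without HeyA8 for the members and for the pathway and ERSE genes named. In bulk RNA, fewer cells with a transcript and less of it per cell cannot be told apart.

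Per kilobase of transcript, the most abundant of the 10 transcripts in vehicle were HSP90B1, with a median of 367 CPM per kb over the 6 lines (range 195 to 860), and HSPA5, the luminal HSP70 also called BiP, with 223 CPM per kb (range 164 to 1229). They were followed by the disulfide isomerase PDIA4 at 83.0, XBP1 at 56.7, HERPUD1 at 36.3, HYOU1 at 28.9, CRELD2 at 20.2, SDF2L1 at 19.4, EDEM1 at 14.4 and DNAJB9 at 5.38 CPM per kb. The ranges of all neighbours in this order overlapped except those of HSPA5 and PDIA4, whose highest line reached 117 CPM per kb. SDF2L1 varied most between lines in vehicle, by 47.1-fold from lowest to highest, followed by CRELD2 (14.4-fold) and HSPA5 (7.47-fold). XBP1, with 2.26-fold, and PDIA4, with 2.88-fold, varied least.

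**Figure D2:**
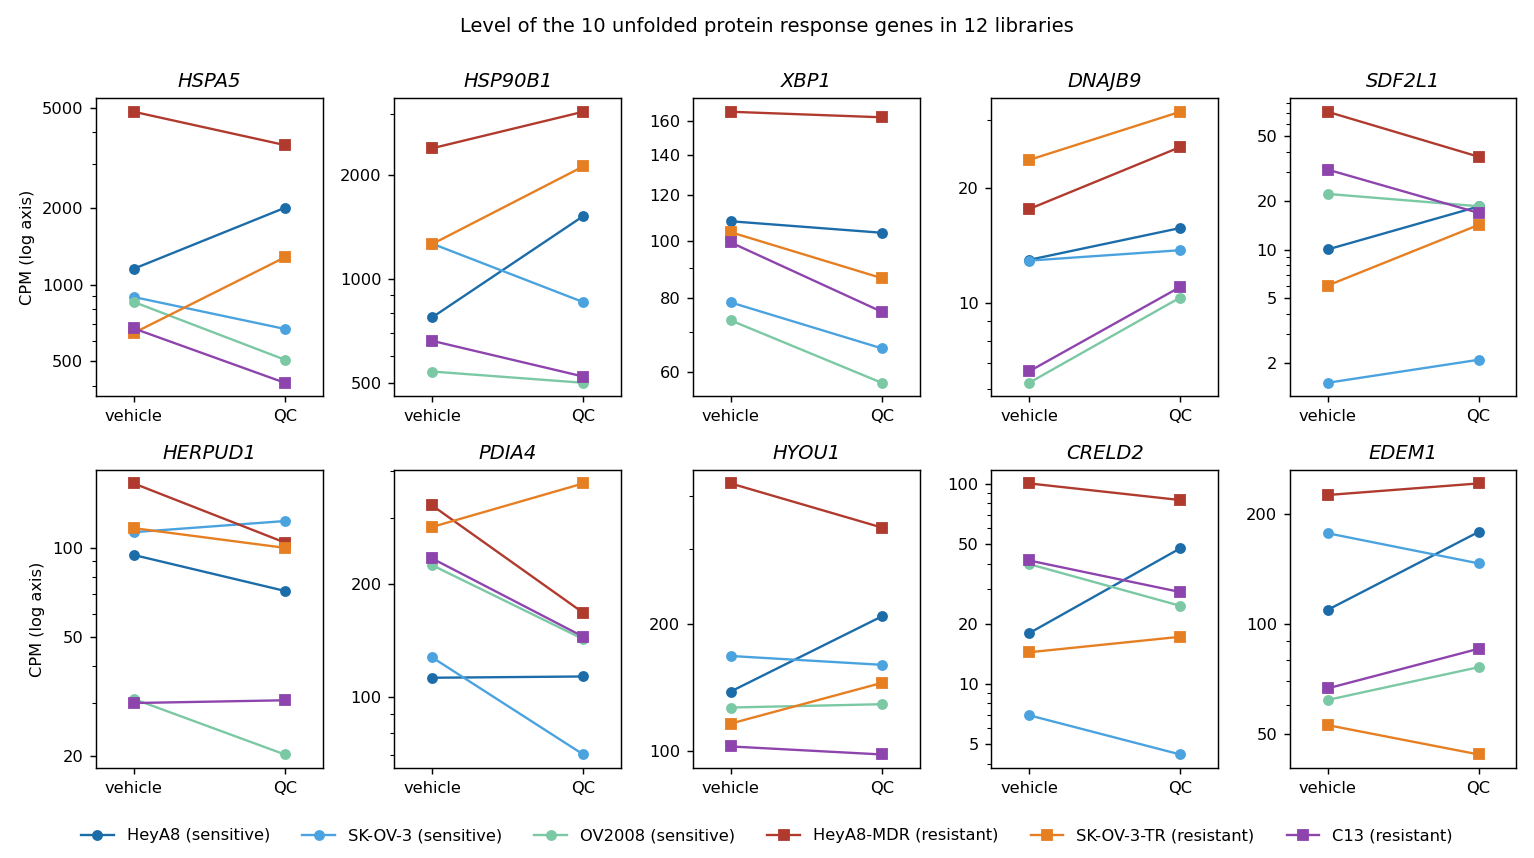
Level of each gene (y axis, CPM on a log axis) in the vehicle and the QC library of each line (x axis), with circles for sensitive and squares for resistant lines and a line joining the 2 libraries of a cell line. DNAJB9 is higher with QC in all 6 lines and XBP1 lower in all 6, while the lines cross in most other panels.

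Over all 6 lines, QC did not move the 10 genes together. DNAJB9 was higher by 0.46 on the log2 scale, PDIA4 was lower with a log2 fold change of -0.46 and HERPUD1 with one of -0.29, and these 3 genes had an unadjusted p under 0.05 in a fit with 1 QC effect and a term for each cell line. In that fit 15.2% of all genes tested had such a p, 7.99% upward and 7.18% downward. None of the 10 genes had a Benjamini-Hochberg adjusted p under 0.05 in edgeR's quasi-likelihood test, and neither did any other gene (0%). DESeq2 put 4 of the 10 under an unadjusted p of 0.05, XBP1 being the addition, and 0 after adjustment, beside 2901 and 522 of all 18720 genes. The median log2 fold change of the 10 genes was -0.02, against 0.0001 for all genes. It was -0.20 without HeyA8 and -0.13 without the HeyA8 family, where those of all genes were -0.0090 and -0.0089.

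The luminal chaperones went in opposite directions in different lines. HSPA5, the chaperone that also holds the ER stress sensors inactive, moved from 1156 to 2012 CPM in HeyA8 and from 645 to 1283 CPM in SK-OV-3-TR. It moved from 895 to 669 CPM in SK-OV-3, from 855 to 506 CPM in OV2008, from 4819.9 to 3560.3 CPM in HeyA8-MDR and from 672 to 410.1 CPM in C13. All 6 changes lay outside counting error, 2 upward and 4 downward, so the spread between lines (SD 0.78 of the log2 change, n = 6) far exceeded the mean of -0.09. HSP90B1, the ER form of HSP90, was split as well, higher in 3 lines and lower in 3. It went from 776 to 1523 CPM in HeyA8, from 2392 to 3049.9 CPM in HeyA8-MDR and from 1264 to 2119.9 CPM in SK-OV-3-TR, but from 1268 to 859 CPM in SK-OV-3, from 541 to 502 CPM in OV2008 and from 664 to 524 CPM in C13. The fitted log2 fold changes were -0.10 (SE 0.23) for HSPA5 and 0.18 (SE 0.20) for HSP90B1, and without HeyA8 they were -0.28 and 0.02.

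CRELD2, a secreted ER stress protein, showed the single largest change of the 10 genes, from 17.9 to 47.7 CPM in HeyA8. It went from 6.99 to 4.45 CPM in SK-OV-3, from 39.8 to 24.6 CPM in OV2008, from 101 to 83.0 CPM in HeyA8-MDR and from 41.4 to 28.8 CPM in C13, and from 14.4 to 17.2 CPM in SK-OV-3-TR. Leaving out HeyA8 moved its log2 fold change over the lines from -0.09 to -0.37 (SE 0.16, unadjusted p = 0.0391, adjusted p = 0.384 by edgeR, with adjusted p-values up to 0.99999 over its alternatives). HYOU1, a large HSP70-related chaperone that releases nucleotide from HSPA5, went from 138 to 208 CPM in HeyA8 and from 429 to 338 CPM in HeyA8-MDR. Its log2 change was 0.32 in SK-OV-3-TR and between -0.07 and 0.03 in the other 3 lines, with a fitted log2 fold change of 0.08 (SE 0.13), or -0.027 without HeyA8.

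PDIA4, also called ERp72, is a protein disulfide isomerase of the ER lumen. Its vehicle and QC levels were 128 and 70.3 CPM in SK-OV-3, 225 and 143 CPM in OV2008, 324 and 168 CPM in HeyA8-MDR and 234 and 145 CPM in C13. In HeyA8 they were 113 and 114 CPM, and in SK-OV-3-TR 284 and 371 CPM. PDIA4 was therefore at least 1.5-fold lower in 4 lines, level in HeyA8 and higher in SK-OV-3-TR. The log2 fold change over all lines was -0.46 (SE 0.17, unadjusted p = 0.0202, adjusted p = 0.239 by edgeR). Without HeyA8 it was -0.56 and without SK-OV-3-TR -0.63 (unadjusted p = 0.00961 and 0.00144, edgeR), whereas without HeyA8-MDR it was -0.38 and without SK-OV-3 -0.39 (unadjusted p = 0.0606 and 0.0566, edgeR). When no gene was filtered, edgeR gave PDIA4 an adjusted p of 0.0428, the only one of its 13 alternatives under 0.05, and the others reached 0.99999. In that unfiltered fit 791 of 39590 genes had an adjusted p under 0.05.

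DNAJB9, also called ERdj4, is a J-domain cochaperone that stimulates the ATPase of HSPA5 and takes part in ER-associated degradation. In sensitive lines its level moved from 12.98 to 15.7 CPM in HeyA8, from 12.93 to 13.8 CPM in SK-OV-3 and from 6.22 to 10.4 CPM in OV2008. In resistant lines it moved from 17.6 to 25.5 CPM in HeyA8-MDR, from 23.6 to 31.5 CPM in SK-OV-3-TR and from 6.66 to 11.04 CPM in C13. All 6 lines were thus higher with QC, as were 4.13% of all genes tested, and the step was smallest in SK-OV-3, where the counting interval of the log2 change ran from -0.14 to 0.32. The log2 fold change was 0.46 (SE 0.15, unadjusted p = 0.00798, adjusted p = 0.192 by edgeR) over all lines. Over the 13 alternative settings it ran from 0.40 to 0.53, with an unadjusted p under 0.05 in 12 of them and adjusted p-values from 0.0661 to 0.99999. Without HeyA8 it was 0.50 (unadjusted p = 0.00952, edgeR). Between 111 and 800 reads lay behind each of these values.

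SDF2L1, the other cofactor of HSPA5, had the widest spread of changes in the resistant lines. It went from 6.00 to 14.2 CPM in SK-OV-3-TR, and from 71.0 to 37.4 CPM in HeyA8-MDR and 31.2 to 16.8 CPM in C13. In the sensitive lines it went from 10.02 to 18.5 CPM in HeyA8, from 1.51 to 2.09 CPM in SK-OV-3 and from 22.1 to 18.5 CPM in OV2008. It was lower with QC in the 3 lines that had the most of it in vehicle and higher in the 3 that had the least. The vehicle level is also the denominator of the change, so error in a vehicle library alone can give such an order. Its fitted log2 fold change over all lines was 0.05 (SE 0.28), or -0.14 without HeyA8. In SK-OV-3 36 and 46 reads were behind the values, and the counting interval of the log2 change ran from -0.19 to 1.14.

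HERPUD1, a membrane protein with a ubiquitin-like domain that organises the degradation complex, had 94.5 CPM in vehicle and 71.6 CPM with QC in HeyA8, 31.0 and 20.2 CPM in OV2008, 164 and 104 CPM in HeyA8-MDR, and 116 and 99.9 CPM in SK-OV-3-TR. It was slightly higher with QC in SK-OV-3, with 113 and 123 CPM, and in C13, with 30.1 and 30.7 CPM. It was lower in 4 of 6 lines, and only its C13 value lay within counting error of no change. The log2 fold change over all lines was -0.29 (SE 0.13, unadjusted p = 0.0478, adjusted p = 0.324 by edgeR). Its unadjusted p was above 0.05 on leaving out HeyA8 (0.0974), HeyA8-MDR (0.127), SK-OV-3-TR (0.0690) or OV2008 (0.151), all from edgeR. Under library size scaling HERPUD1 was also above it (0.0576) and XBP1 below it (0.0344), so that the count stayed at 3 members with XBP1 in place of HERPUD1. EDEM1, a mannosidase-like protein that directs misfolded glycoproteins to degradation, went from 109 to 179 CPM in HeyA8 and from 177 to 146 CPM in SK-OV-3, and its log2 change lay between -0.27 and 0.36 in the other lines. It was higher with QC in 4 of 6 lines, with a log2 fold change of 0.16 (SE 0.14), or 0.04 without HeyA8.

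XBP1, the transcription factor of the IRE1 branch, was lower with QC in all 6 lines, as were 4.6% of all genes tested. The vehicle and QC levels were 108 and 103 CPM in HeyA8, 78.7 and 65.8 CPM in SK-OV-3, 73.4 and 57.5 CPM in OV2008, 166 and 163 CPM in HeyA8-MDR, 104 and 86.6 CPM in SK-OV-3-TR and 99.6 and 75.9 CPM in C13. The steps were small, and those of HeyA8 and HeyA8-MDR lay within counting error. The log2 fold change was -0.23 (SE 0.11, unadjusted p = 0.0542 by edgeR), the smallest SE of the 10 genes, and the unadjusted p was 0.0216 without the HeyA8 family and 0.0520 without HeyA8.

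**Figure D3:**
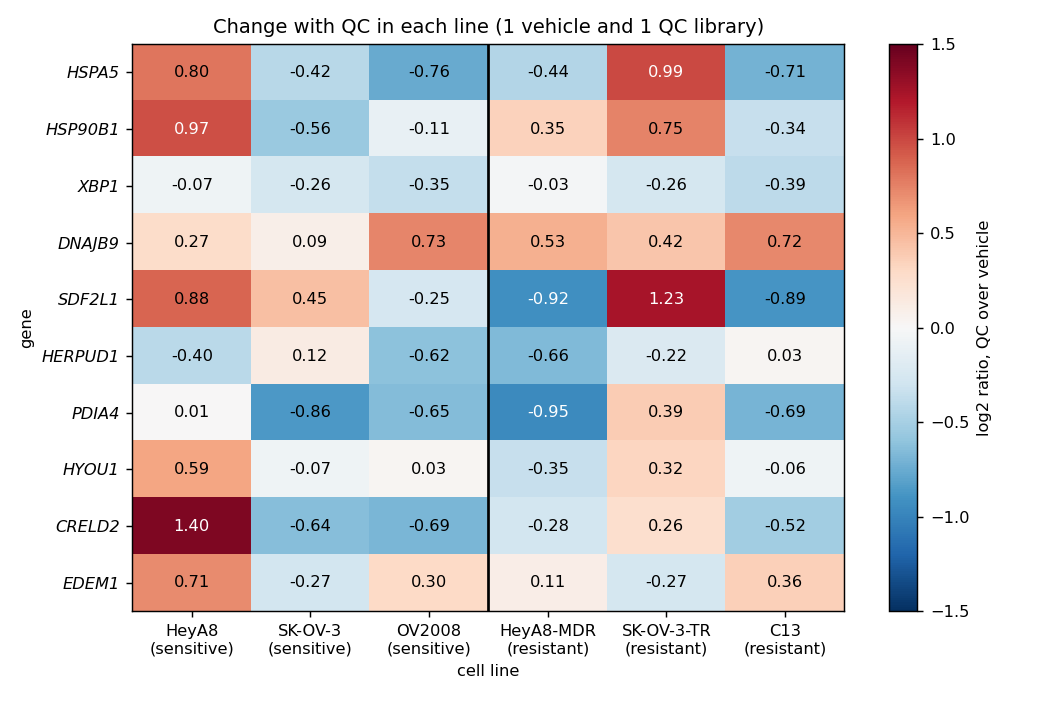
Log2 ratio of the QC over the vehicle level for each gene (rows) in each line (columns), with red for higher and blue for lower, and no error because each line had 1 library per treatment. The HeyA8 and SK-OV-3-TR columns are mostly red, with medians of 0.65 and 0.35, and the other 4 columns mostly blue.

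Seen by line, 6 genes were at least 1.5-fold higher with QC in HeyA8 and 0 lower, against 19.4% and 16.8% of all genes tested in that line. In SK-OV-3-TR 3 genes were at least 1.5-fold higher and 0 lower (10.1% and 14.5% of all genes). In the other lines the lower genes prevailed, with 1 higher and 4 lower in OV2008 (18.6% and 16.2% of all genes), 0 and 2 in SK-OV-3 (9.07% and 10.2%), 1 and 3 in C13 (17.4% and 12%) and 0 and 3 in HeyA8-MDR (16.4% and 19.3%). The single higher gene in OV2008 and in C13 was DNAJB9. The median log2 change of the 10 genes was 0.65 in HeyA8, 0.35 in SK-OV-3-TR, -0.37 in C13, -0.31 in HeyA8-MDR, -0.30 in OV2008 and -0.27 in SK-OV-3. The lines with higher medians were thus a sensitive and a resistant line, from different families. Of the 60 changes of a gene in a line, 52 lay outside the 95% exact binomial interval of the counts, which covers counting error alone.

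HeyA8 is the line whose QC library lay towards its partner in both gene sets, and its members were read against that. In the HeyA8 QC library the members had covered 59.8% (EDEM1), 59.1% (DNAJB9), 46.2% (HSP90B1), 36.0% (CRELD2), 24.0% (HYOU1), 23.4% (HSPA5) and 13.9% (SDF2L1) of the distance from the HeyA8 to the HeyA8-MDR vehicle level. PDIA4 lay at 0.416%, and XBP1 and HERPUD1 moved away from it, at -8.23% and -32.9%. The part of this shift in the HeyA8 values was not tested. SK-OV-3-TR, where HSPA5, HSP90B1 and SDF2L1 were also at least 1.5-fold higher, was examined in the same way: its QC library had covered a median of -0.00989% of the distance to SK-OV-3 among 223 genes that were 8-fold or more higher there, and 11.96% among 350 that were 8-fold or more lower.

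Across the 6 lines, the log2 changes of PDIA4 (Pearson r = 0.919), SDF2L1 (0.849), HSP90B1 (0.846), CRELD2 (0.837) and HYOU1 (0.806) ran with that of HSPA5. Those of XBP1 (0.414), EDEM1 (-0.0191), HERPUD1 (-0.00922) and DNAJB9 (-0.468) did so less or not at all. Without HeyA8 the first 5 genes had r between 0.708 and 0.930 over 5 lines, XBP1 0.163 and EDEM1 -0.710. These are descriptions over 6 lines whose ratios share the scaling of each library. The 5 chaperones and the cofactor that ran together include PDIA4, with no element match in its promoter window, and XBP1 did not run with them although its window holds an ERSE. Among 10118 genes with a mean of at least 10 CPM, 69 (0.682%) had a correlation of 0.9 or more with the mean change of the 10 genes. The 5 highest were CANX (0.996), TUSC2 (0.982), RNASEH2C (0.981), NF2 (0.978) and NPC2 (0.976). CANX, the membrane lectin chaperone calnexin, also has an ERSE in its promoter window, and its log2 change was 0.63 in HeyA8, 0.56 in SK-OV-3-TR and between -0.06 and -0.0064 in the other 4 lines.

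In the 3 sensitive lines, 0 of the 10 genes had an unadjusted p under 0.05 for QC, a threshold met by 6.59% of all genes tested, and the smallest adjusted p was 0.760 in edgeR's quasi-likelihood test (0% of all genes had one under 0.05), and DESeq2 also had 0 of the 10 under the unadjusted threshold, beside 1156 of all 18720 genes and 32 after adjustment. The median log2 fold change of the 10 genes was 0.06, against 0.02 for all genes, and without HeyA8 it was -0.28. The call depended on that line: without it, PDIA4 (-0.76, unadjusted p = 0.0229) and CRELD2 (-0.68, unadjusted p = 0.0242) were past the threshold in edgeR, with CRELD2 at 0.03 and PDIA4 at -0.50 when it was kept. In the fit without HeyA8, 808 of 19890 genes were past the unadjusted threshold. After adjustment 2 of all genes passed there, and neither PDIA4 nor CRELD2 did. HSPA5 had a log2 fold change of -0.13 (SE 0.35) with all 3 lines and -0.59 (SE 0.35) without HeyA8, and DNAJB9 one of 0.36 (SE 0.22).

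In the 3 resistant lines, DNAJB9 was past the unadjusted threshold with a log2 fold change of 0.56 (SE 0.22, unadjusted p = 0.0271, adjusted p = 0.816 by edgeR), where 6.03% of all genes were past it and 3.43% upward. Leaving out HeyA8-MDR, SK-OV-3-TR or C13 gave DNAJB9 unadjusted p-values of 0.0825, 0.0523 and 0.116 by edgeR, with log2 fold changes of 0.55, 0.65 and 0.46. The other 9 genes did not pass (DESeq2 likewise had DNAJB9 alone, beside 1093 of all genes), and 0% of all genes did after adjustment in edgeR, as in DESeq2. The median log2 fold change was -0.12, against -0.01 for all genes, HSPA5 stood at -0.06 (SE 0.35) and PDIA4 at -0.42 (SE 0.26).

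The response of resistant and sensitive lines was compared directly. None of the 10 genes differed between the groups at an unadjusted p under 0.05, as 1.16% of all genes did, and 0% of all genes differed after adjustment (adjusted p = 0.9998 for all 10 genes, edgeR), and DESeq2 also put 0 of the 10 under the unadjusted threshold, beside 167 of all genes and 1 after adjustment. The difference furthest from 0 was that of SDF2L1, with -0.59 (SE 0.56, resistant minus sensitive), from 0.35 in sensitive and -0.24 in resistant lines. Without SK-OV-3-TR it was -1.23 (SE 0.40, unadjusted p = 0.00971, adjusted p = 1 by edgeR), and without each of the other lines it lay between -0.95 and -0.21. The SEs of 0.24 to 0.56 on the log2 scale leave room for sizeable differences in either direction, so a like response in both groups was not shown.

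Without drug, all 10 transcripts were more abundant in HeyA8-MDR than in HeyA8, 6 of 10 in SK-OV-3-TR than in SK-OV-3 and 7 of 10 in C13 than in OV2008. The median log2 ratios of all genes in these families were -0.03, -0.01 and 0.04, beside 1.57, 0.22 and 0.08 for the 10 genes. The share of all genes higher in the resistant line was not computed for each family, so the counts have no background. SDF2L1 had 71.0 CPM in HeyA8-MDR against 10.02 CPM in HeyA8, 6.00 CPM in SK-OV-3-TR against 1.51 CPM in SK-OV-3, and 31.2 CPM in C13 against 22.1 CPM in OV2008. Its resistant line was thus above its partner in every family, by 7.08-fold, 3.98-fold and 1.41-fold, although the 2 groups overlapped. XBP1, DNAJB9, PDIA4 and CRELD2 were also higher in all 3 resistant lines than in their partners, making 5 of the 10 genes, beside 13.1% of all genes. Ratios of any size were counted, for these genes and for all genes. CRELD2 was higher by 5.603-fold, 2.06-fold and 1.04-fold in the HeyA8, SK-OV-3 and OV2008 families, and PDIA4 by 2.88-fold, 2.23-fold and 1.04-fold. DNAJB9 was higher by 1.36-fold, 1.83-fold and 1.07-fold. The count of 5 thus rests on steps close to 1 in the OV2008 family for CRELD2, PDIA4 and DNAJB9. No counting interval was computed for these vehicle ratios. HSPA5 and HYOU1 were higher in HeyA8-MDR, by 4.17-fold and 3.10-fold, and lower in the resistant line of both other families. EDEM1 was 2.06-fold higher in HeyA8-MDR and at 0.299 of its partner's level in SK-OV-3-TR.

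**Figure D4:**
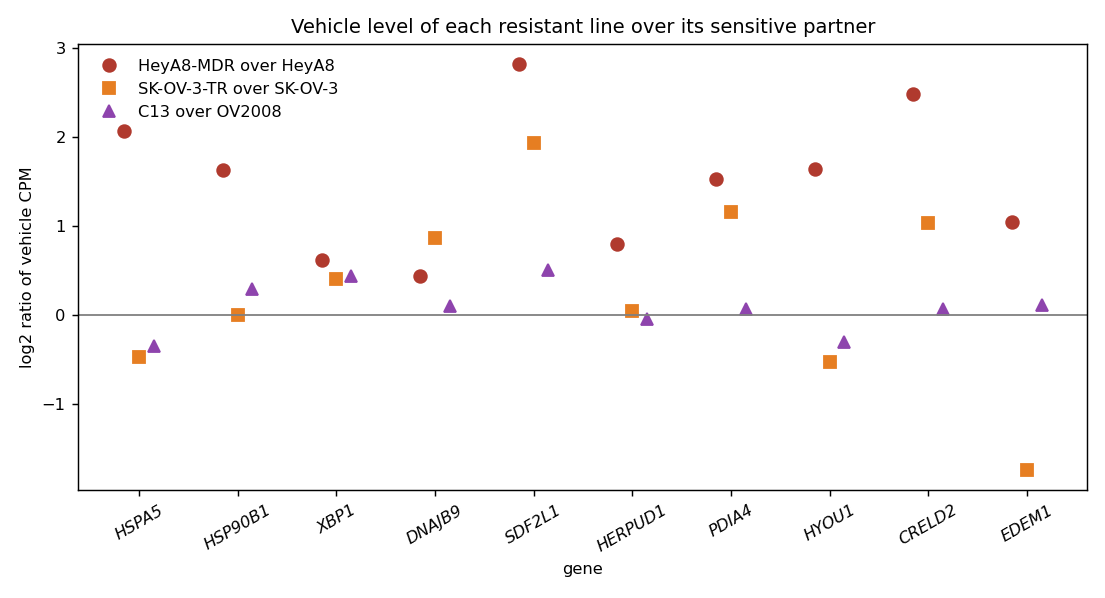
Log2 ratio of the vehicle level of each resistant line over its sensitive partner (y axis) for each gene (x axis), 1 point per family and no error because each line had 1 vehicle library. All 10 points of the HeyA8 family lie above 0, with a median of 1.57, whereas those of the OV2008 family lie close to 0, with a median of 0.08.

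In the fit of the 6 vehicle libraries with the family as a term, SDF2L1 had a log2 fold change of 1.79 (SE 0.57, unadjusted p = 0.0214, adjusted p = 0.975 by edgeR). It was the only one of the 10 genes past the unadjusted threshold, which 3.77% of 16091 genes met, 1.9% upward, and 0% of genes passed after adjustment. DESeq2 put 3 of the 10 past it, with PDIA4 and CRELD2 added, and 0 after adjustment, beside 1058 and 45 of all genes. PDIA4 followed with 0.93 (SE 0.38), CRELD2 with 1.20 (SE 0.55), HSP90B1 with 0.64 (SE 0.40) and XBP1 with 0.50 (SE 0.25), and the others lay between -0.17 and 0.48. The median of the 10 genes was 0.49, against 0.01 for all genes, with 9 of 10 above 0. Without the HeyA8 family SDF2L1 was at 1.23 (SE 0.65, unadjusted p = 0.115 by edgeR), the median was 0.29, and HSPA5 and HYOU1 turned to -0.41 each. The family medians were 1.57 for HeyA8, 0.22 for SK-OV-3 and 0.08 for OV2008.

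The other genes of the pathway were described from a list of 76, of which 75 were tested (DERL3 did not pass the filter). Over all 6 lines, 5 of the 75 were higher and 6 lower at an unadjusted p under 0.05, beside the 7.99% and 7.18% of all genes, and 0 after adjustment in edgeR. DESeq2 gave the same 2 counts and put 1 gene, ATF3, past the adjusted threshold. Without HeyA8, where DERL3 was tested as well, 6 of 76 were higher and 5 lower, beside 6.62% and 5.41% of all genes. The median log2 fold change was 0.02, or -0.0012 without HeyA8. The 7 sensors and their proteases had no gene past the threshold, with EIF2AK3 at 0.27 (SE 0.15) and ERN1 at 0.30 (SE 0.17), or 0.40 without HeyA8, where it was past it (unadjusted p = 0.0486, edgeR). Of 26 other folding factors, 1 was higher and 3 lower: DNAJC1, a J-domain protein, at 0.50 (SE 0.17), and the thioredoxin-like TXNDC5 at -0.50 (SE 0.16), which was lower in 5 of 6 lines. Of 17 degradation genes, SELENOS, a membrane selenoprotein of the retrotranslocation complex, was higher in all 6 lines, at 0.38 (SE 0.13), and EDEM2, a relative of EDEM1, was lower in 5 of 6, at -0.47 (SE 0.15). Of 18 translocon and trafficking genes, 0 were higher and 1 lower, the KDEL receptor KDELR3 at -0.50 (SE 0.19), with SEC61G at 0.32 (SE 0.17). Without HeyA8 these log2 fold changes were 0.38 for DNAJC1, -0.53 for TXNDC5, 0.32 for SELENOS, -0.58 for EDEM2, -0.56 for KDELR3 and 0.22 for SEC61G, each on the same side of the threshold.

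The PERK and ATF4 arm held the largest fitted change of the 75 genes, but it did not rise as a whole. Of its 7 genes 3 were higher and 1 lower at an unadjusted p under 0.05 over all 6 lines, beside 7.99% and 7.18% of all genes. Their median log2 fold change was -0.11. When HeyA8 was left out, 3 were higher and 0 lower, with a median of -0.049. In that fit TRIB3 was at -0.25, CHAC1 at -0.46 and PPP1R15B at -0.049. ATF3, a stress-induced transcription factor, went from 8.46 to 63.6 CPM in HeyA8, from 6.48 to 18.5 CPM in SK-OV-3, from 8.46 to 45.3 CPM in OV2008, from 37.2 to 106 CPM in HeyA8-MDR and from 32.3 to 69.6 CPM in C13, but from 41.9 to 25.9 CPM in SK-OV-3-TR. Its log2 fold change was 1.47 over all lines (SE 0.36, unadjusted p = 0.00142, adjusted p = 0.153 by edgeR), 2.29 in sensitive and 0.67 in resistant lines, and the difference of -1.63 (SE 0.54) had an unadjusted p of 0.0110 and an adjusted p of 0.9998 by edgeR. ATF3 was already higher in vehicle in each resistant line than in its partner. The vehicle log2 fold change, resistant over sensitive, was 2.26 (SE 0.38, unadjusted p = 0.00116, adjusted p = 0.975 by edgeR). In that fit 1 of the 75 genes was higher and 1 lower at the unadjusted threshold, beside 3.77% of all genes in either direction. Each resistant line also stayed above its partner with QC, so its smaller QC change started from a higher level. Because the vehicle level is the denominator of the change, error in a vehicle library can give both a higher level and a smaller change. The HeyA8 QC level was above the vehicle levels of both HeyA8 (8.46 CPM) and HeyA8-MDR (37.2 CPM), and below the QC level of HeyA8-MDR (106 CPM). Whether admixture of HeyA8-MDR added to it was not tested. Without HeyA8 the log2 fold change of ATF3 was 1.18 over the lines (SE 0.33, unadjusted p = 0.00373, adjusted p = 0.266 by edgeR) and 1.97 in sensitive lines, and the difference was -1.30 (SE 0.55, unadjusted p = 0.0350, adjusted p = 1 by edgeR). DDIT3 (CHOP) at 0.58 (SE 0.19) and PPP1R15A (GADD34), which restores translation, at 0.64 (SE 0.20) were each higher in 5 of 6 lines, the exception again being SK-OV-3-TR. Without HeyA8 they were at 0.60 and 0.71. ATF4 itself was lower in 4 of 6 lines, at -0.39 (SE 0.16), or -0.28 without HeyA8, where it was no longer past the threshold (unadjusted p = 0.101, edgeR). In the direct comparison of the groups 1 of these 7 genes, ATF3, passed the unadjusted threshold, beside 1.16% of all genes. When HeyA8 was left out, 2 of the 7 were past it, both lower in resistant lines, beside 0.588% of all genes lower. They were ATF3 and TRIB3, the latter at -1.16 (SE 0.44, unadjusted p = 0.0211, edgeR). The log2 changes of DDIT3, PPP1R15A and ATF3 in SK-OV-3-TR, the line where HSPA5 was highest relative to vehicle, were -0.57, -0.41 and -0.69.

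**Figure D5:**
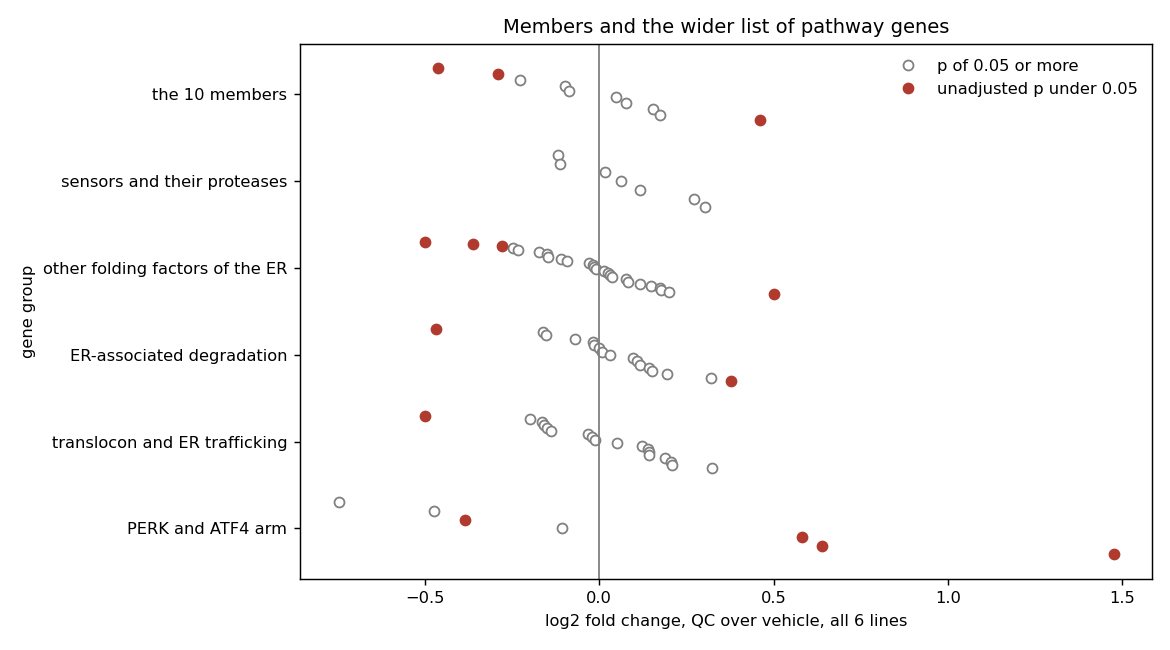
Fitted log2 fold change with QC over all 6 lines (x axis) for the 10 members and the 75 further pathway genes grouped by role (y axis), 1 point per gene, filled where the unadjusted edgeR p is under 0.05. Most points lie within 0.5 of 0, and ATF3 stands apart at 1.47.

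The element matches were also set beside the response. Outside the 10 genes, 29 further genes had an ERSE or ERSE-II match, and 18 of them were tested. Over all 6 lines 3 of these were higher at an unadjusted p under 0.05 (PLS3 at 0.48, ZNF143 at 0.47 and SETD3 at 0.33) and 0 were lower, beside 7.99% and 7.18% of all genes, with a median of 0.04 against 0.0001 for all genes. Without HeyA8 the 3 were at 0.44, 0.44 and 0.28 and past the threshold, and the median was -0.0116, against -0.0090 for all genes. With all 6 lines, DESeq2 also had 3 of the 18 genes higher and 0 lower. It put 1 of them, PLS3, past the adjusted threshold, beside 522 of all 18720 genes, whereas edgeR put 0 past it. PLS3, ZNF143 and SETD3 encode an actin-bundling protein, a transcription factor and a methyltransferase rather than ER chaperones. CALR, the lectin chaperone calreticulin, followed HSPA5 in sign in every line, with log2 changes of 0.61 in HeyA8, 0.48 in SK-OV-3-TR and -0.97, -0.57, -0.41 and -0.50 in SK-OV-3, OV2008, HeyA8-MDR and C13. This was not particular to ER chaperones. Among the same 18 genes RAD9A had these signs as well, at 0.74, 0.21, -0.18, -0.52, -0.54 and -0.10 in that order of lines. Others, such as FICD, SERP1 and ERO1B, did not have them. The share of all genes with these signs was not computed.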

How the data were processed

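Libraries were made with a TruSeq RNA kit, and the authors deposited raw counts per gene, not normalized. Per the labels and the submitters' processing notes, reads were processed with STAR 2.7.3a, HTSeq 0.6.1p1 and GRCh38.p13, whereas the paper's methods name TopHat, hg19 and HTSeq, and the table names no build. The counting strand is not given in the sources used here. Ensembl IDs stripped of their version were looked up in a reference gene table, and 58663 of 60669 (99.868% of counts) found a symbol. Promoters are from RefSeq on GRCh38.p14.

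The tests were run with edgeR 4.0.16 (limma 3.58.1, R 4.3.3). Low genes were removed by filterByExpr (minimum count 10, minimum total 15), libraries were scaled by TMM, and two-sided quasi-likelihood tests were adjusted by the Benjamini-Hochberg method over all genes tested. The main design held the cell line as the replicate block and separate QC effects for sensitive and resistant lines, with 4 residual degrees of freedom. A fit with 1 QC effect had 5, and the vehicle fit, with the isogenic family as the block, had 2. Libraries were paired by cell line, and paired libraries strayed from their group means together (correlations 0.893 to 0.929 across genes). Changes per line are log2 ratios of CPM with a prior count of 2, with no test. Levels per kb use the canonical transcript length. Counting intervals are 95% exact binomial (scipy 1.17.1) and cover counting error alone.

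The genes named are the 10 members, the 2 genes of each role of the wider list with the smallest p over all lines plus ATF4 and DDIT3, and the 5 genes most like the members' mean change. ABCB1 served to check the HeyA8 QC library. PLS3, ZNF143, SETD3, CALR, DERL3, TRIB3, CHAC1, PPP1R15B, RAD9A, FICD, SERP1 and ERO1B were named after their values were seen. Members and lists were chosen with earlier results of these data known. Alternatives were DESeq2 1.42.0, its size factors, library size scaling, other filters, no block, fits of a group alone, other prior counts (0.5 and 5), the family as block for the difference, and leaving out each line. Leaving out the HeyA8 family, and for genes outside the 10 members leaving out HeyA8 or using DESeq2, were added after seeing the data. The methods were tested on simulated counts. Plots were drawn with matplotlib 3.10.9.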

Additional observations from a re-analysis of the deposited data

Results flagged for a closer look

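Among the 10 members, no change in a line stood far from those of the other lines by Dixon's test, and no difference between resistant and sensitive lines passed the unadjusted threshold in edgeR (as in DESeq2). ATF3, of the PERK and ATF4 arm, was singled out because its QC effect differed between the groups, by -1.63 on the log2 scale (resistant minus sensitive, SE 0.54, unadjusted p = 0.0110, adjusted p = 0.9998 by edgeR), with a log2 change above 1 in all 3 sensitive lines, HeyA8-MDR and C13 and of -0.69 in SK-OV-3-TR. Without HeyA8 the difference was -1.30 (unadjusted p = 0.0350, edgeR). ATF3 was also higher in vehicle in each resistant line than in its partner, with a log2 fold change of 2.26 (SE 0.38). The same vehicle libraries are the denominator of its QC change, so these results are not independent.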

How the results depend on the processing

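Members past the unadjusted threshold in sensitive lines numbered 0, and 1 without the expression filter or with the libraries of the group alone. They numbered 2 without the HeyA8 family (added after seeing the data) and 0 to 2 on leaving out a line (2 without HeyA8). Of all genes, 1234 of 18720 were past it in the main fit and 1918 of 39590 without the filter. The group alone had 955 of 15633, the fit without the family 653 of 19351 and that without HeyA8 808 of 19890. In resistant lines the 1 member became 0 under library size scaling, without the replicate block and without the HeyA8 family, and 2 without the filter. The count was 0 to 2 on leaving out a line (0 without HeyA8-MDR or C13, 2 without SK-OV-3-TR). Of 18720 genes, 1128 were past it in the main fit, 1062 under library size scaling and 23 without the block. Without the HeyA8 family 398 of 19351 were, and without the filter 1637 of 39590. Leaving out HeyA8-MDR, C13 or SK-OV-3-TR gave 416 of 20081, 1376 of 19750 and 1200 of 19307. For the difference, 0 became at most 1 on leaving out a line (SK-OV-3-TR), beside 217 of 18720 genes in the main fit and 240 of 19307 without SK-OV-3-TR. Over all 6 lines 3 members became 0 without the replicate block, where all genes past the threshold went from 2840 to 88 of 18720. Without the filter 1 member passed after adjustment, as did 791 of 39590 genes. In vehicle, 1 member became 2 under library size scaling, 4 without the filter, 3 with at least 10 counts in every library, 3 with DESeq2, 0 without the replicate block, and 0 to 3 on leaving out a family (0 without HeyA8, 3 without OV2008). In C13, 3 members lower by 1.5-fold became 1 under library size scaling. The family as the replicate block for the difference changed no call, with SDF2L1 as the only member followed there. Signs turned for CRELD2 in sensitive lines with DESeq2 (-0.0048) and without the HeyA8 family (-0.69), and for HSPA5 there without the replicate block (0.13) and in resistant lines without the HeyA8 family (0.13). Over all lines they turned for SDF2L1 without the replicate block (-0.22) and HSP90B1 without the HeyA8 family (-0.081). On leaving out a line, log2 fold changes ran from -0.68 to 0.46 for CRELD2 and -0.59 to 0.19 for HSPA5 in sensitive lines, and from -0.56 to 0.26 for HSPA5 in resistant lines. Over all lines they ran from -0.20 to 0.26 for SDF2L1, -0.027 to 0.15 for HYOU1, -0.37 to 0.048 for CRELD2 and -0.32 to 0.043 for HSPA5, and in vehicle from -0.41 to 0.87 for HSPA5, -0.41 to 0.68 for HYOU1 and -0.82 to 0.59 for EDEM1. The cause of these shifts was not tested. Depth limited SDF2L1 in SK-OV-3, with 36 and 46 reads, and 1 library per line left no estimate of error within a line.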
